A study of Mus musculus with 12 samples.

Results

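The collagen prolyl and lysyl hydroxylase genes are P4ha1, P4ha2, P4ha3, P4hb, Plod1, Plod2 and Plod3, 7 of the 21631 protein-coding genes that the mouse annotation places on autosomes or the X chromosome. They were chosen as an enzyme family, with earlier results of these data known, and each was described by every peak that overlapped its gene span plus 10 kb on either side. The peaks were HIF1A and ARNT chromatin immunoprecipitation (ChIP-seq) peaks from N1E115, a mouse neuroblastoma cell line that the labels call NOS1+. The cells had been kept for 3 days at 4% O2 or at 20% O2, in both cases with 5% CO2 and at ambient pressure. The 8 ChIP samples made 4 groups of 2 replicates: HIF1A at 4% O2, ARNT at 4% O2, HIF1A at 20% O2 and ARNT at 20% O2. A further 4 samples were inputs, 2 at each oxygen level. All groups came from this single cell line with no genetic change between them, and peak lists hold no expression values, so the labelled cell type could not be checked against marker genes. The labels do not state that replicates were separate cultures, so the spread between them may be technical.

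Fibrillar collagen is hydroxylated in the endoplasmic reticulum before it is secreted. The collagen prolyl hydroxylases join a catalytic alpha subunit (P4ha1, P4ha2 or P4ha3) to the beta subunit P4hb, also known as protein disulfide isomerase, and the hydroxyproline they make keeps the collagen triple helix stable at body temperature. The lysyl hydroxylases Plod1, Plod2 and Plod3 modify lysines from which sugars are attached and cross-links are formed. Both families need oxygen, iron, ascorbate and alpha-ketoglutarate. HIF-1 is a dimer of the oxygen-regulated subunit HIF1A and its partner ARNT, and it binds hypoxia response elements, whose core is ACGTG or GCGTG.

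Promoter windows (250 bases upstream to 50 downstream of a start site) were at hand for 6 of the 7 genes, all but Plod2. Of these 6, P4ha1, P4ha2, P4hb and Plod3 had a peak in the window in all 4 lists at 4% O2, against 8.23% of the 17274 genes with such a window. The stretch of 250 bases just upstream of each of these start sites is given here, because the highest peaks of these genes lay there and because it holds the hypoxia response element cores discussed with the peak positions. The sequences are from RefSeq (GRCm38.p6, the assembly behind the mm10 build of the files), 5′ to 3′ along the gene, with ACGTG and GCGTG on either strand in capitals. They lie at chr10:59323046-59323295 on the plus strand, chr11:54100674-54100923 on the plus strand, chr11:120573254-120573503 on the minus strand and chr5:136986769-136987018 on the plus strand.
P4ha1: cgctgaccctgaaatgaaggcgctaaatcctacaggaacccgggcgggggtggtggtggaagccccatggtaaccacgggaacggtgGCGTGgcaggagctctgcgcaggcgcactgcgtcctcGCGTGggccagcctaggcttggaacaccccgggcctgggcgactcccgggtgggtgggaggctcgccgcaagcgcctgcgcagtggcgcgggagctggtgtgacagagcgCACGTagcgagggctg
P4ha2: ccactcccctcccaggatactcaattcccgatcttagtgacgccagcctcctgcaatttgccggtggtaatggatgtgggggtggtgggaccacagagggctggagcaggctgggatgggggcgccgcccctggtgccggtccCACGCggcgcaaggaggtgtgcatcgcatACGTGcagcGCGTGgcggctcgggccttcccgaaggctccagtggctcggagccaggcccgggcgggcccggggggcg
P4hb: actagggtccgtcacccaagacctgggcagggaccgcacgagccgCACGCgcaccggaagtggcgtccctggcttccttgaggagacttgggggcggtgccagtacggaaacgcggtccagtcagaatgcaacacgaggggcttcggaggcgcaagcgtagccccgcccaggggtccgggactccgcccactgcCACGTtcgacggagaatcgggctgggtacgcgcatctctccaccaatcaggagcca
Plod3: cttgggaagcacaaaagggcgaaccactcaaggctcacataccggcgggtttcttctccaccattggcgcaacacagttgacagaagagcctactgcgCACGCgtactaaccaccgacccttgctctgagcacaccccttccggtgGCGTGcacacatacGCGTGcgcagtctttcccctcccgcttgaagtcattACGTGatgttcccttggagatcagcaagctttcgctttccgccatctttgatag

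The lists differed in length and form, which bears on every count. HIF1A lists held 42701 and 13655 entries at 4% O2 and 5393 and 13386 entries at 20% O2, for replicates 1 and 2. ARNT lists held 24942 and 9920 entries at 4% O2 and 7252 and 1808 entries at 20% O2. Entries of both HIF1A replicate 2 lists were positions of 1 bp, and those of the other lists were intervals with median widths between 129 and 182 bp. The HIF1A replicates stood apart at 20% O2: replicate 1 had an entry at 11.3% of all genes and replicate 2 at 31.7%. Both HIF1A replicate 2 lists were called against another input than the rest and, per the labels, combined reads of 2 sequencing runs, so form, input and runs cannot be told apart from replicate. Because a rank depends on the length of its list, ranks are given with the list they belong to, and no change between oxygen levels is read from them. The score that sets the rank is the authors' own value per entry, on a scale that no header names.

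P4ha1 encodes the main catalytic alpha subunit in most cell types. Its span is chr10:59323197-59373304, and its highest entry lay over the start site in every list that held one. At 4% O2 this entry ranked 11 of 42701 and 2 of 13655 in the HIF1A lists. It ranked 19 of 24942 and 1 of 9920 in the ARNT lists, so that no entry of ARNT replicate 2 scored higher. At 20% O2 HIF1A replicate 1 had no entry in the window and HIF1A replicate 2 had 1, which ranked 4 of 13386. The ARNT lists at 20% O2 had 1 entry each, which ranked 275 of 7252 and 225 of 1808. Its entry was the highest of the 7 hydroxylase genes in each of these 7 lists. P4ha1 was the only gene of the 7 with an entry in both ARNT lists at 20% O2, and this was the start-site entry. In the HIF1A replicate 2 lists the position lay 15 bp upstream of the start site at 4% O2 and 27 bp upstream at 20% O2. The ARNT intervals over it were 682 and 1725 bp wide at 4% O2, against 205 and 130 bp at 20% O2. The whole ARNT lists differed in the same direction, with longest intervals of 1892 and 4870 bp at 4% O2 and 746 and 773 bp at 20% O2.

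P4ha2 encodes the second alpha subunit, known from cartilage and bone cells, and its span is chr11:54100924-54131668. At 4% O2 its start-site entry ranked 33 of 42701 and 21 of 13655 for HIF1A and 46 of 24942 and 32 of 9920 for ARNT. At 20% O2 the start site was held only by HIF1A replicate 2, at rank 54 of 13386. HIF1A replicate 1 and both ARNT lists had none there. The position was 60 bp upstream of the start site at 4% O2 and 49 bp upstream at 20% O2. P4ha2 also had 4 sites further in that both HIF1A lists at 4% O2 shared (a site is a stretch of overlapping entries). The site 2329 bp past the start was the highest of these within its lists, with percentile ranks of 94.5 and 83.0 in the HIF1A lists at 4% O2 and of 53.2 and 87.0 at 20% O2. It was the only P4ha2 site in both HIF1A lists at 20% O2. ARNT replicate 1 held it at 4% O2, at percentile 89.6, and no other ARNT list did. The 2 sites at 11227 and 12114 bp past the start were in both HIF1A lists and ARNT replicate 1 at 4% O2, and in HIF1A replicate 2 and ARNT replicate 1 at 20% O2. The fourth shared site, at chr11:54102121-54102370, was low in both HIF1A lists at 4% O2, with percentile ranks of 29.7 and 15.3.

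P4ha3 encodes the third alpha subunit, and its span is chr7:100285489-100319701. It had 5 HIF1A entries and 2 ARNT entries in replicate 1 at 4% O2 and none in any other list. Its highest HIF1A entry, at chr7:100302401-100302644, was at percentile 68.8, and the other 4 were at percentiles 26.7 or lower. Its ARNT entries were at percentiles 22.5 and 4.56. No site of P4ha3 was found in both lists of a group, and no list had an entry in its promoter window. P4ha1 and P4ha2, by contrast, had a start-site entry in all 4 lists at 4% O2.

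**Figure D1:**
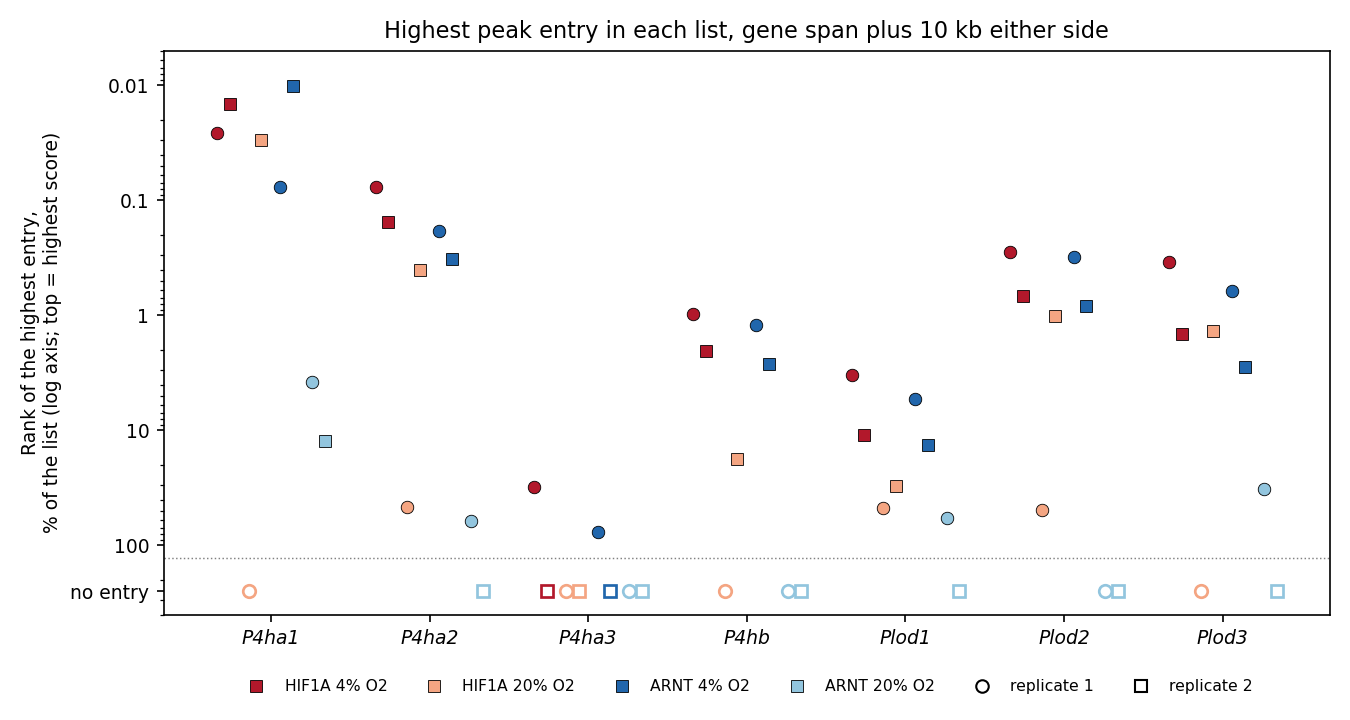
Highest entry per gene and list, as its rank in percent of the list's length (log axis, highest scores at the top); each point is 1 list, with 4% O2 left of 20% O2 for each antibody, circles for replicate 1, squares for replicate 2 and open symbols for lists without an entry. P4ha1 has the highest-ranking entry of the 7 genes in all 7 lists that hold it.

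P4hb encodes the beta subunit, which holds the alpha subunits soluble and in the endoplasmic reticulum and is a disulfide isomerase in its own right. Its span is chr11:120560298-120573253. At 4% O2 its start-site entry ranked 418 of 42701 and 279 of 13655 for HIF1A and 301 of 24942 and 265 of 9920 for ARNT. At 20% O2 it was in HIF1A replicate 2 alone, at rank 2359 of 13386, with a score of 17.9. Neither ARNT list nor HIF1A replicate 1 had an entry in the window at 20% O2. The HIF1A replicate 2 positions lay 192 bp upstream of the start site at 4% O2 and 165 bp upstream at 20% O2.

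Plod1 encodes the lysyl hydroxylase acting on the triple-helical part of collagen. Its span is chr4:147909753-147936776, and its leading site lay outside it. That site, at chr4:147906135-147906597, was beyond the 3′ end of the gene, 3363 bp from it and 30386 bp from the Plod1 start site. It was 1481 bp upstream of the nearest start site of Mfn2, the gene for mitofusin, a protein of mitochondrial fusion, so its assignment to Plod1 rests on the 10 kb flank. The site ranked 1415 of 42701 and 1493 of 13655 for HIF1A and 1345 of 24942 and 1337 of 9920 for ARNT at 4% O2. At 20% O2 it ranked 2532 of 5393 and 4057 of 13386 for HIF1A, was in ARNT replicate 1 at rank 6513 of 7252 and was not in ARNT replicate 2. The highest Plod1 entry of that ARNT list was another, at rank 4193 of 7252, which covered the Mfn2 start site at chr4:147904858-147904997. Over the Plod1 start site the only entry was in HIF1A replicate 1 at 4% O2, at percentile 86.4.

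Plod2 encodes the lysyl hydroxylase that acts on the telopeptides, the ends of the collagen chains, from which the most stable cross-links form. Its span is chr9:92539636-92608428. Its leading site, chr9:92541027-92542543, lay inside the span, with the HIF1A position 2494 bp from the low end of the gene. The same place is inside the span of the long non-coding RNA B430319G15Rik, 739 bp past that gene's start site on the minus strand. At 4% O2 the site ranked 121 of 42701 and 93 of 13655 for HIF1A and 78 of 24942 and 83 of 9920 for ARNT. At 20% O2 it was in HIF1A replicate 2 alone, at rank 135 of 13386. Both HIF1A lists held another site at each oxygen level, chr9:92537736-92538283, which lies below the low end of the span. It had percentile ranks of 88.6 and 59.0 at 4% O2 and of 49.5 and 42.7 at 20% O2. Another site, at chr9:92610021-92610230 beyond the high end of the span, was in both HIF1A lists at 4% O2 at percentiles 28.0 and 9.56.

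Plod3 encodes a lysyl hydroxylase that also attaches sugars to hydroxylysine. Its span, chr5:136987019-136996646, is the shortest of the 7, and it had a single site. At 4% O2 that site ranked 146 of 42701 and 197 of 13655 for HIF1A and 153 of 24942 and 279 of 9920 for ARNT. At 20% O2 it ranked 185 of 13386 in HIF1A replicate 2 and 2352 of 7252 in ARNT replicate 1, and the other lists had none. The HIF1A position at 4% O2 was 71 bp upstream of the Plod3 start site and 44 bp upstream of a start site of Znhit1, which is read from the opposite strand. These peaks therefore cannot be assigned to Plod3 rather than to Znhit1.

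**Figure D2:**
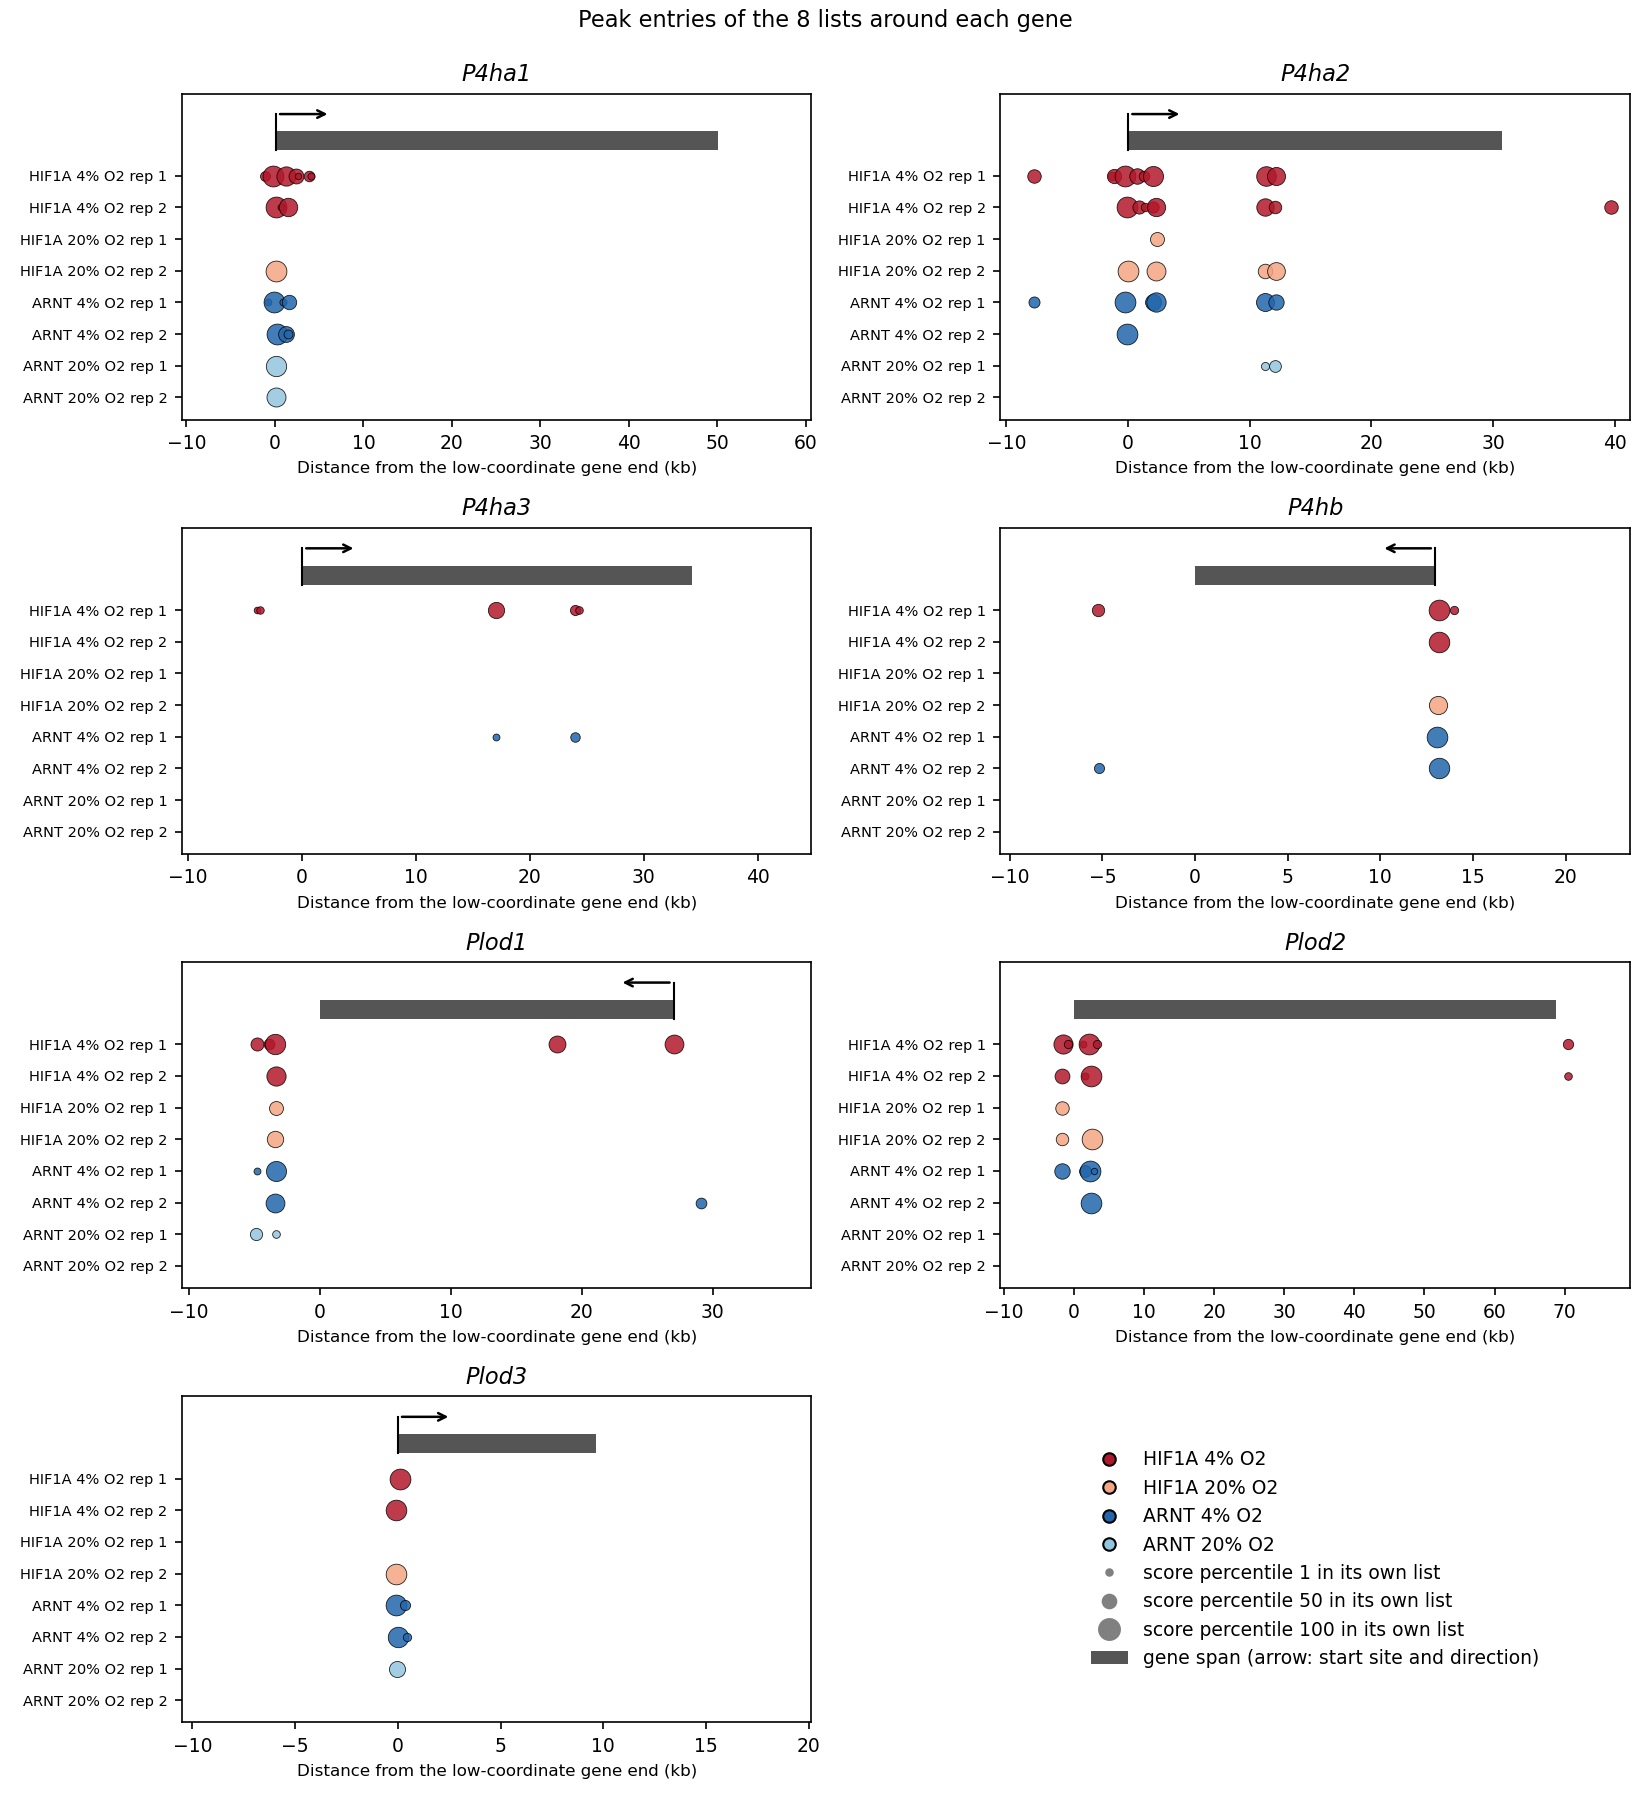
Entries of the 8 lists around each gene, by distance from the low end of the gene span in kb (bar: gene span; arrow: start site; circles: entries, larger for a higher score percentile in the list; rows: lists, with 4% O2 above 20% O2). P4ha1, P4ha2, P4hb and Plod3 show a stack of entries at the start site in all 4 lists at 4% O2, Plod1 shows it outside the span, Plod2 inside it, and P4ha3 shows none.

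The 7 genes held 36 sites, of which 19 were in a single list. Both lists of a group shared 12 sites for HIF1A and 6 for ARNT at 4% O2, against 3 for HIF1A and 1 for ARNT at 20% O2. The lists at 4% O2 were longer, and sites were not counted over all genes. The share of all genes with an entry in both lists was likewise lower at 20% O2. It was 34.5% at 4% O2 and 10.7% at 20% O2 for HIF1A, and 31.6% and 7.25% for ARNT. The 6 sites in all 4 lists at 4% O2 were 1 per gene for every gene but P4ha3. The sites in both HIF1A lists at 20% O2 were 1 each in P4ha2, Plod1 and Plod2. The P4ha2 site lay 2329 bp past the start and the Plod1 site near Mfn2, so neither was a start-site peak. The Plod2 site was chr9:92537736-92538283, and no Plod2 start site was at hand to place it. In P4ha1, P4ha2, P4hb and Plod3 the HIF1A start-site entries at 20% O2 all came from replicate 2. They stood within 11 to 27 bp of the replicate 2 position at 4% O2.

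The question behind the design is whether binding differs between 4% and 20% O2. P4ha1 had 7 and 3 HIF1A entries at 4% O2 and 0 and 1 at 20% O2, and P4ha2 had 9 and 8 against 1 and 4. Plod2 had 6 and 4 HIF1A entries at 4% O2 and 1 and 2 at 20% O2. In these 3 genes each HIF1A list at 4% O2 held more entries than either at 20% O2, as in 17.1% of all genes. P4hb had 3 and 1 HIF1A entries at 4% O2 and 0 and 1 at 20% O2. Plod1 had 5 and 1 against 1 and 1, Plod3 had 1 and 1 against 0 and 1, and P4ha3 had 5 and 0 against none. In these 4 genes the HIF1A groups overlapped or touched.

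ARNT entries separated the oxygen levels in P4ha1, P4hb, Plod2 and Plod3, as in 21.2% of all genes. P4ha1 had 4 and 3 ARNT entries at 4% O2 and 1 and 1 at 20% O2, and Plod2 had 4 and 1 against none. P4hb had 1 and 2 at 4% O2 against none at 20% O2, and Plod3 had 2 and 2 against 1 and 0. The groups overlapped for P4ha2, with 6 and 1 ARNT entries at 4% O2 and 2 and 0 at 20% O2. They touched for Plod1, with 2 and 2 against 2 and 0, and for P4ha3, with 2 and 0 against none.

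**Figure D3:**
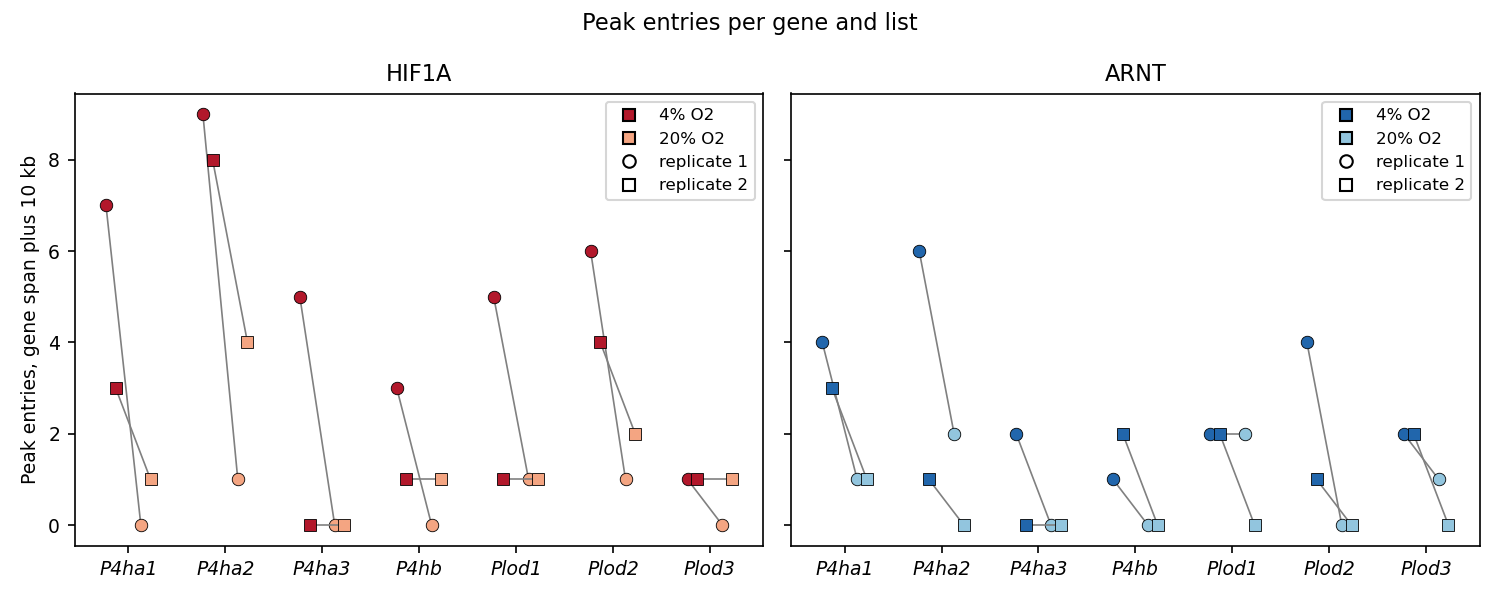
Entries per gene and list, with 4% O2 left of 20% O2 for each antibody; each point is 1 list (circles replicate 1, squares replicate 2) and lines join lists of the same replicate number. P4ha1, P4ha2 and Plod2 have more HIF1A entries in both lists at 4% O2 than in either at 20% O2, and the HIF1A replicates at 4% O2 differ most for P4ha3, with 5 and 0.

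On the scale of log2(entries + 1), all 7 genes were higher at 4% O2, with differences between 0.79 and 1.58 over both antibodies and a median of 1.15. The median over all genes was 0.25, and over the 13224 genes with an entry in any list it was 0.73, with 91.9% of these higher at 4% O2. With all entries of these unequal lists, P4ha1 had the largest difference, 1.58, and Plod2 followed with 1.47. This order did not hold at equal list length. With the 1808 highest entries of each list the difference was 0.25 for P4ha1, 0.75 for Plod2 and 1.0 for P4hb and Plod1. For HIF1A alone and with all entries, P4ha1 averaged 2.5 ± 0.71 at 4% O2 and 0.5 ± 0.71 at 20% O2 (SD, 2 lists each). For ARNT it averaged 2.16 ± 0.23 at 4% O2 and 1.0 ± 0.0 at 20% O2. Plod2 averaged 2.57 ± 0.34 at 4% O2 and 1.29 ± 0.41 at 20% O2 for HIF1A, and 1.66 ± 0.93 against 0.0 for ARNT. In P4ha3, Plod1 and Plod3 the HIF1A difference between oxygen levels was smaller than the SD of at least 1 of the groups. P4ha3 averaged 1.29 ± 1.83 for HIF1A at 4% O2 against 0.0 at 20% O2, Plod1 1.79 ± 1.12 against 1.0 ± 0.0, and Plod3 1.0 ± 0.0 against 0.5 ± 0.71.

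By exact permutation of the oxygen labels within antibody (two-sided, 36 arrangements), P4ha1 and Plod2 reached the smallest p the design allows, 0.0556, as did 10.3% of all genes in the same direction. Their Benjamini-Hochberg adjusted p over all genes was 0.541. The exact p was 0.111 for P4ha2 and P4hb (adjusted 0.656), 0.167 for Plod3 (adjusted 0.67), and 0.5 for P4ha3 and Plod1 (adjusted 1.0). None passed 0.05, which 2 lists per group cannot reach. Per 10000 entries of each list, the 7 genes together had 8.43 and 13.2 HIF1A entries at 4% O2 and 5.56 and 7.47 at 20% O2. For ARNT they had 8.42 and 11.1 at 4% O2 and 8.27 and 5.53 at 20% O2. With each gene's entries scaled this way, the differences between 4% and 20% O2 on the log2(value + 1) scale lay between 0.03 and 0.71, and that of P4ha1 was 0.43. The largest was that of P4hb, and the exact permutation p was 0.389 for P4ha1 and 0.167 for Plod2.

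At 4% O2, 6 of the 7 genes, all but P4ha3, had an entry in both HIF1A lists, against 34.5% of all genes. The same 6 had one in both ARNT lists, against 31.6% of all genes, and in all 4 lists, against 26.4%. At 20% O2, P4ha2, Plod1 and Plod2 had an entry in both HIF1A lists, against 10.7% of all genes, and P4ha1 alone in both ARNT lists, against 7.25%. Within the gene span alone, without the flanks, the HIF1A numbers were 3 at 4% O2 (P4ha1, P4ha2 and Plod2) and 1 at 20% O2. The ARNT number at 4% O2 was then 5 (P4ha1, P4ha2, P4hb, Plod2 and Plod3). The 1 bp HIF1A replicate 2 positions of P4hb and Plod3 lay just outside the span. No share of all genes is at hand for the span alone. Without HIF1A replicate 1 at 20% O2 the HIF1A number was 6, against 31.7% of all genes with an entry in the list left. Without ARNT replicate 2 at 20% O2 the ARNT number was 4, against 22.3% of all genes. The lengths of the 7 spans lay between percentiles 35.0 and 83.2 of all gene spans, and a longer span has more room for entries.

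No gene of the 7 had an entry in both HIF1A lists at 4% O2 and in neither at 20% O2, a pattern of 9.96% of all genes. Leaving out HIF1A replicate 2 at 20% O2 made this 3 (P4ha1, P4hb and Plod3), and leaving out HIF1A replicate 2 at 4% O2 made it 1 (P4ha3). For ARNT the pattern held for P4hb and Plod2, against 16.8% of all genes. Leaving out ARNT replicate 1 at 20% O2 made this 5, all 7 genes but P4ha1 and P4ha3. For the numbers with a list left out, no share of all genes is at hand.

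Equal list lengths remove the difference in the number of entries. With the 1808 highest entries of each list, the length of the shortest, 6 of the 7 genes, again all but P4ha3, kept an entry in both HIF1A lists at 4% O2, against 6.63% of all genes. The same 6 did so in both ARNT lists at 4% O2, against 5.63%, and in all 4 lists, against 5.01%. At 20% O2 no gene of the 7 was in both HIF1A lists, against 3.14% of all genes, and P4ha1 was in both ARNT lists, against 4.95%. Among these equal lists P4hb and Plod1 were in both HIF1A lists at 4% O2 and in neither at 20% O2, against 2.96% of all genes. For ARNT this held for P4ha2, P4hb, Plod1, Plod2 and Plod3, against 3.81%. P4ha1, P4ha2, Plod2 and Plod3 had an entry among the 1808 highest of HIF1A replicate 2 at 20% O2, and no gene of the 7 had one in HIF1A replicate 1 at 20% O2. No share of all genes is at hand for a single list at this cut, so these numbers have no background.

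**Figure D4:**
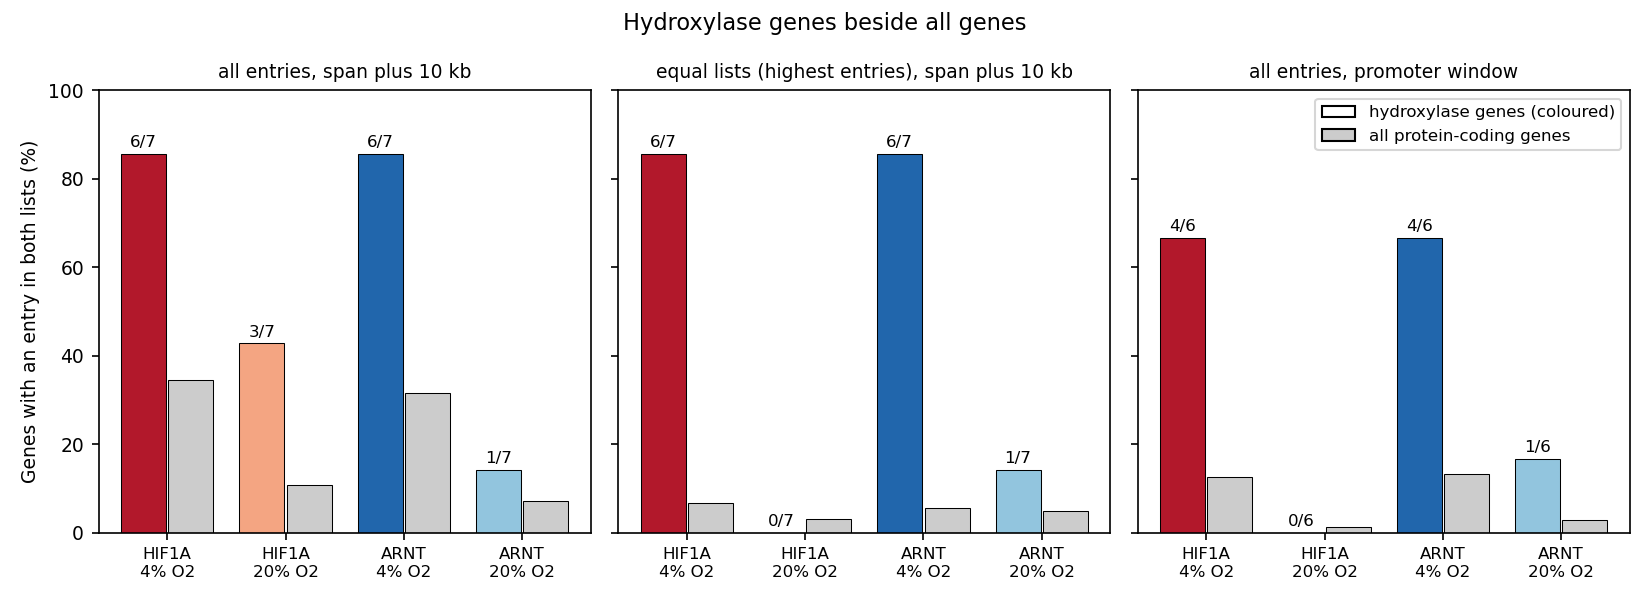
Percent of genes with an entry in both lists of a group, for the hydroxylase genes and for all genes, with 4% O2 left of 20% O2; panels count all entries, the 1808 highest of each list, and entries over promoter windows. With the 1808 highest at 4% O2, 6 of the 7 genes are counted for each antibody, against 6.63% of all genes for HIF1A and 5.63% for ARNT.

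Over promoter windows, P4ha1, P4ha2, P4hb and Plod3 had entries in both HIF1A lists at 4% O2, against 12.5% of the 17274 genes. The same 4 of the 6 hydroxylase genes in the table had entries in both ARNT lists at 4% O2, against 13.4%. At 20% O2 none had entries in both HIF1A lists, against 1.4% of these genes, and P4ha1 had entries in both ARNT lists, against 2.81%.

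The motif ACGTG, searched on both strands, occurred in the promoter windows of these same 4 genes and not in those of P4ha3 and Plod1. It was in a window of 23.5% of all 17274 genes. In P4ha1 its middle base was 14 bp upstream of the start site, in the CACGT printed in capitals near the end of the sequence, and the HIF1A position at 4% O2 was 1 bp from it. The position at 20% O2 was 13 bp from it. In P4ha2 ACGTG lay 76 bp upstream of the start and GCGTG 67 bp upstream, and the HIF1A position at 4% O2 was 16 bp from the first and 7 bp from the second. In Plod3 ACGTG lay 52 bp upstream, 19 bp from the HIF1A position at 4% O2, and the nearest GCGTG was 17 bp from it. In P4hb the upstream ACGTG was 138 bp from the HIF1A position at 4% O2, and the only GCGTG, 203 bp upstream of the start, was 11 bp from it. P4ha2 and P4hb each had a further ACGTG downstream of the start, 12 and 37 bp from it. No ACGTG of these genes was part of CACGTG or overlapped TGACGT.

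Of all 21045 promoter windows, 21.1% held ACGTG. A HIF1A replicate 2 position at 4% O2 lay in 2379 windows, and 51.4% of these held ACGTG. In the 1223 windows with both, the median distance from the position to the nearest ACGTG was 27 bp, with quartiles of 11 and 51 bp. Of these 1223 windows, 4.17% had the position within 1 bp. GCGTG was the more common core, in a window of 41.9% of all genes. By window, it was in 38.85% of all windows and in 69.6% of those with a HIF1A position. Its median distance from the position was 30 bp, and 38.2% were within 20 bp, against 41.6% for ACGTG. It occurred in 5 of the 6 hydroxylase windows, with P4ha3 the exception. The windows of the 6 genes had a GC content between 53.3% and 70.3%, against a median of 56.7% over all windows (quartiles 48.3% and 64.7%), and both cores hold a CG pair. The part of GC content in these matches was not tested. A match to either core is a description of the letters and not a measured binding site.

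**Figure D5:**
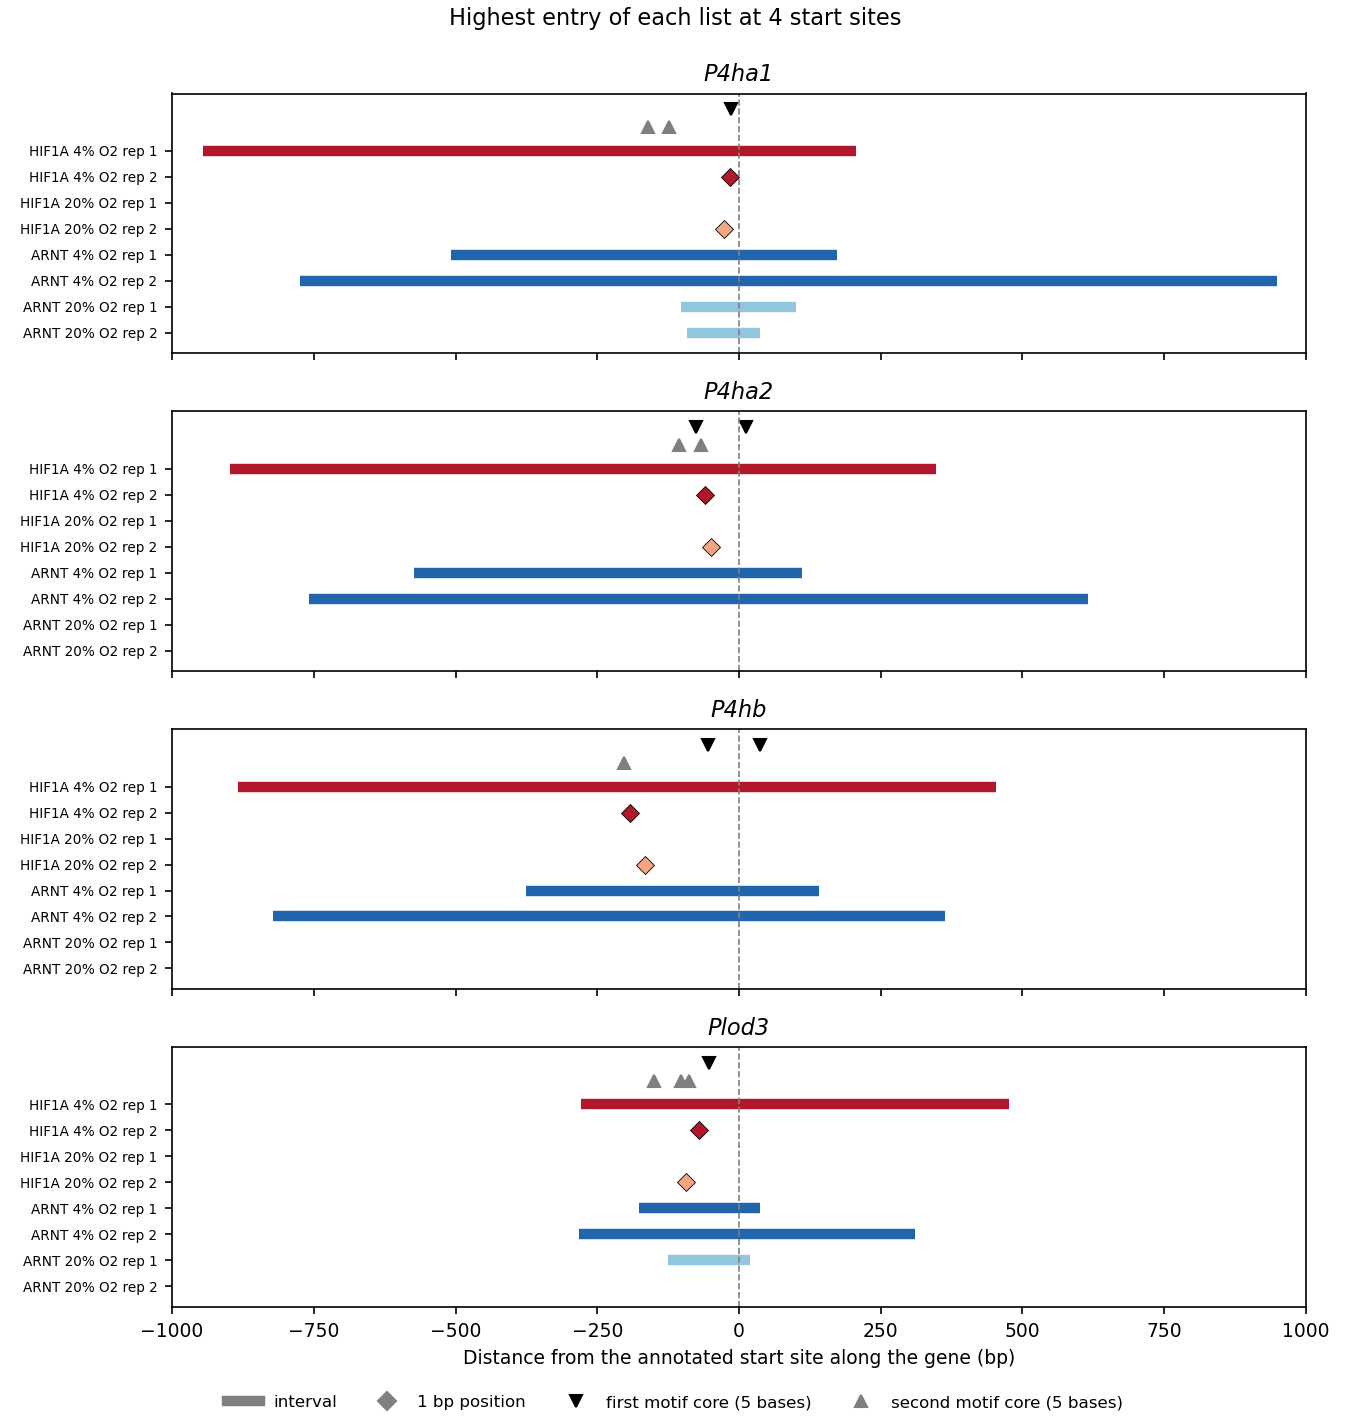
Highest entry of each list around the start sites of P4ha1, P4ha2, P4hb and Plod3, by distance from the start site along the gene in bp (bars: intervals; diamonds: 1 bp positions; downward triangles: ACGTG; upward triangles: GCGTG). The HIF1A position at 4% O2 lies 15, 60, 192 and 71 bp upstream of the start in the order of the panels.

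Genes that act with the hydroxylases were read from 4 lists holding 40 genes. Their shares stand beside those of all genes with an entry in both lists, which were 34.5% at 4% O2 and 10.7% at 20% O2 for HIF1A. The ARNT shares of all genes were 31.6% at 4% O2 and 7.25% at 20% O2. Of 13 collagen chaperones and further modifying enzymes, 7 (53.9%) had an entry in both HIF1A lists and 7 in both ARNT lists at 4% O2, against 0 and 2 (15.4%) at 20% O2. The 13 also took in P4htm and Tmem38b, whose products are not known to fold or modify collagen. P4htm was among those counted for both antibodies at 4% O2. Of these 13, 1 had an entry among the 1808 highest of both HIF1A lists at 4% O2, a share near the 6.63% of all genes. That was P3h3, which encodes a prolyl 3-hydroxylase family member, with percentile ranks at 4% O2 of 99.0 and 97.1 in the HIF1A lists and 98.2 and 97.5 in the ARNT lists. At 20% O2 P3h3 had 92.1 in HIF1A replicate 2 and 61.3 in ARNT replicate 1, and no entry in the other lists. Serpinh1, which encodes the collagen chaperone HSP47, followed with a mean percentile of 73.3 over the lists at 4% O2. At 20% O2 Serpinh1 had 58.4 in HIF1A replicate 2 and 94.5 and 95.1 in the ARNT lists. Among the 1808 highest of both ARNT lists, 1 of the 13 had an entry at 4% O2 and 2 at 20% O2. The shares of all genes were 5.63% and 4.95%. For HIF1A at 20% O2 the number of the 13 was 0, against 3.14% of all genes.

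Of 6 oxidative folding partners of P4hb, 3 (50%) had an entry in both HIF1A lists and 2 (33.3%) in both ARNT lists at 4% O2, against 0 and 1 at 20% O2. The ARNT share at 4% O2 was near that of all genes. Ero1a, the oxidase that passes electrons from protein disulfide isomerase to oxygen, was the only one among the 1808 highest of both HIF1A lists at 4% O2. At 4% O2 its percentile ranks were 99.2 and 98.4 in the HIF1A lists and 98.1 and 97.4 in the ARNT lists. At 20% O2 it had 95.7 in HIF1A replicate 2 and 98.8 and 73.7 in the ARNT lists. Among the 1808 highest of both ARNT lists there was 1 of the 6 at 4% O2 and 1 at 20% O2. The shares of all genes were 5.63% and 4.95%. For HIF1A the number of the 6 was 1 at 4% O2 and 0 at 20% O2, against 6.63% and 3.14% of all genes.

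Of 8 procollagen processing and export genes, 4 (50%) had an entry in both HIF1A lists and 3 (37.5%) in both ARNT lists at 4% O2, against 1 and 1 (12.5% each) at 20% O2. The ARNT share at 4% O2 and the HIF1A share at 20% O2 were near those of all genes, and none of the 8 was among the 1808 highest of both lists of either antibody at 4% O2. At 20% O2, 1 of the 8 was among the 1808 highest of both ARNT lists and 0 of both HIF1A lists. At this cut the HIF1A shares of all genes were 6.63% at 4% O2 and 3.14% at 20% O2. The ARNT shares of all genes were 5.63% and 4.95%. Of 13 collagen chain genes, 3 (23.1%) had an entry in both HIF1A lists and 2 (15.4%) in both ARNT lists at 4% O2, both below the shares of all genes, against 4 (30.8%) and 1 (7.69%) at 20% O2. Among the 1808 highest entries at 4% O2, 1 chain gene was in both HIF1A lists and 0 in both ARNT lists. At 20% O2 no chain gene was in both lists of either antibody among these entries. Col1a1, a chain of type I collagen, led them with HIF1A percentile ranks of 97.6 and 92.5 at 4% O2 and of 32.4 and 84.9 at 20% O2. The median difference in log2(entries + 1) between 4% and 20% O2 was 1.15 for the 7 hydroxylase genes and 1.0 for the chaperones and modifying enzymes. It was 0.75 for the folding partners, 0.51 for processing and export and 0.0 for the collagen chains. Over all genes it was 0.25, and over genes with an entry in any list it was 0.73. The folding partners were near this last value, and processing and export and the chains were below it.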

How the data were processed

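Peaks of 8 ChIP samples were analysed, and groups and replicate numbers came from the sample titles. Per the submitters' processing notes, the tools were BWA, Picard and MACS2 and the build was mm10, with no version or setting stated. An entry of a deposited list has coordinates, a name and a score. The score is the authors' own value, on a scale that no header names, and it served only to rank entries within a list. Peaks were called per sample, per the sample names in the deposited files: HIF1A replicate 2 against input 5 and the other lists against input 4 of the same oxygen level, so that HIF1A replicate 1 and ARNT lists share an input. Per the file headers, the replicate 1 samples were read on a single flow cell lane. The lists hold no read counts, so depth is unknown and no interval can be given for an entry.

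Gene spans came from a GRCm38.p6 annotation. Promoter windows came from a set of RefSeq promoters at hand, which held a window for 6 of the 7 genes. An entry counted for a gene when at least 1 bp overlapped its span plus 10 kb on either side. Entries were compared as log2(entries + 1), with a pseudocount of 1, by a two-sided exact permutation test within antibody for every gene, adjusted over all of them by the Benjamini-Hochberg method. Overlapping entries of all lists were merged into sites. The named genes were the 7 hydroxylase genes and the leading members of 4 pathway lists. The members and lists were chosen with earlier results of these data known. Alternatives changed the window, the entries used, the overlap, the scaling and the replicates. GCGTG and the treatment of the 1 bp lists were added after seeing the data. Python 3.11.15, numpy 2.4.6 and pandas 2.3.3 were used.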

Additional observations from a re-analysis of the deposited data

How the results depend on the processing

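The number of the 7 genes with an entry in both lists depended on the list used. For HIF1A at 4% O2 the number was 6, and 3 with the gene span alone. The HIF1A replicate 2 positions of P4hb and Plod3, 1 bp each, lay 192 and 71 bp outside the span. The replicate 1 intervals of these genes crossed the end of the span. For ARNT at 4% O2, with intervals in both lists, the number was 6, and 5 with the gene span alone. For HIF1A at 20% O2 it was 3, then 1 with the gene span alone, 0 with the 1808 highest entries, and 3 to 6 when a replicate was left out. The list left then had an entry at 11.3% and 31.7% of all genes, respectively. For ARNT at 20% O2 the number was 1, and 1 to 4 when a replicate was left out. Here the list left had an entry at 7.6% and 22.3% of all genes. The number in both HIF1A lists at 4% O2 and in neither at 20% O2 was 0. It was 2 with the 1808 highest entries, 0 to 3 when a replicate was left out, and 4 (P4ha1, P4ha3, P4hb and Plod3) without both HIF1A replicate 2 lists, a choice made after seeing the data. The same number for ARNT was 2. It was 5 with the 1808 highest entries, 4 with the entries of each list above its median score (P4ha2, P4hb, Plod1 and Plod2), and 2 to 5 when a replicate was left out. For the gene span alone, the entries above the median score and the oxygen patterns with lists left out, no share of all genes is at hand. The cause of these shifts was not tested.

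The difference in entries between 4% and 20% O2 was not reversed for any of the 7 genes under any alternative run. In the main setting 91.9% of all genes with an entry in any list were also higher at 4% O2, where lists were longer. Most alternatives kept these unequal lists, and no share of all genes is at hand for them. For the 7 genes the difference lay between 0.0 (P4ha3, 1808 highest entries) and 2.08 (P4ha1, without both HIF1A replicate 2 lists). With the replicate block it was 1.58 for P4ha1, as without it, with an exact permutation p of 0.125, the smallest that the 16 arrangements allow. The labels do not say that a replicate number marks a shared culture or day, so the numbers were not taken as pairs. Over 13224 genes, the difference of replicate 1 minus replicate 2 at 4% O2 was correlated with that at 20% O2. The correlation was -0.01 for HIF1A and 0.28 for ARNT, from 2 pairs of same-numbered lists each. Replicate 1 samples shared a lane. Lists without read counts do not show whether a missing entry lay just under the calling threshold.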
